A study of Mus musculus with 25 samples.

Results

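A set of 10 genes that carry glucose from the cell surface to lactate was followed across 25 single cells of the mouse hypothalamus. They are the glucose transporters Slc2a1 and Slc2a3, hexokinase Hk1, the aldolases Aldoa and Aldoc, phosphoglycerate kinase Pgk1, the enolases Eno1 and Eno2, and the lactate dehydrogenase subunits Ldha and Ldhb. They were taken by name, with earlier results of these data known, and all 10 of 10 were found, each on a single line of a table of 30903 gene symbols. The cells came from the arcuate nucleus and median eminence (Arc-ME), at the base of the hypothalamus, of a pool of 2 adult male RIP-Cre mice of the (C57BL/6 x DBA)F2 background with an average age of 63 days. In RIP-Cre mice a rat insulin promoter drives Cre recombinase, and the cells picked by hand were green from an adeno-associated virus (AAV) whose green fluorescent protein (GFP) is switched on by Cre. The cells were therefore those that had both active Cre and virus, after enzyme digestion, dispersion and freezing. All 25 cells form 1 group from 1 pool, so no groups were compared and no test was run, and every spread given here is a spread between cells.

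Glycolysis splits glucose into pyruvate in a chain of enzyme steps in the cytosol and yields ATP without oxygen. Transporters of the SLC2 family (GLUT) let glucose cross the membrane, hexokinase traps it as glucose 6-phosphate, aldolase cleaves the sugar, and phosphoglycerate kinase and enolase act on the products. Lactate dehydrogenase interconverts pyruvate and lactate. Most steps have isoenzymes from separate genes, and in brain several of these are known as neuronal (Slc2a3, Eno2) or glial and vascular (Slc2a1, Aldoc) forms. Many genes of the chain are known targets of the hypoxia-inducible factors (HIF), whose core recognition letters are ACGTG or GCGTG.

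Promoter sequence is shown for 4 of the genes, a transporter that many cells lacked, 1 enzyme gene with a known HIF-responsive promoter, and the 2 subunits of lactate dehydrogenase. Each runs 5′ to 3′ on the gene's strand from 250 bases before to 50 bases after a RefSeq start, with ACGTG or GCGTG on either strand in capitals. The windows, from RefSeq on GRCm38.p6, are chr4:119108495-119108794 on the plus strand for Slc2a1, chrX:106186850-106187149 on the plus strand for Pgk1, chr7:46845554-46845853 on the plus strand for Ldha and chr6:142507908-142508207 on the minus strand for Ldhb.
Slc2a1: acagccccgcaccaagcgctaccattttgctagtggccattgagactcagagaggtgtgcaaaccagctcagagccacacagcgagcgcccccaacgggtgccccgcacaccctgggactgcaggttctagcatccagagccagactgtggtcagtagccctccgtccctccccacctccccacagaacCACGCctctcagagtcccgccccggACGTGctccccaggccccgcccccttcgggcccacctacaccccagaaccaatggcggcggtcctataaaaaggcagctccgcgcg
Pgk1: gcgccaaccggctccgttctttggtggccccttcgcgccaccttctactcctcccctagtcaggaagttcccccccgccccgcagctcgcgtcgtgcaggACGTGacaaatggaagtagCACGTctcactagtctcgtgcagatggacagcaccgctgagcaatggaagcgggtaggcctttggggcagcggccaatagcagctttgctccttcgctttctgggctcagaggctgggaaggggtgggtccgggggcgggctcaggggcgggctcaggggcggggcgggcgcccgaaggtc
Ldha: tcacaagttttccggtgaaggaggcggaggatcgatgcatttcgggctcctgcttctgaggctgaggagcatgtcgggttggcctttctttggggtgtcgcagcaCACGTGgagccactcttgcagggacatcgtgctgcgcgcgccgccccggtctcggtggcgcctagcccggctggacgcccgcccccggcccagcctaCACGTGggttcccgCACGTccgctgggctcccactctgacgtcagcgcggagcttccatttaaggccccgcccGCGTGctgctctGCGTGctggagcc
Ldhb: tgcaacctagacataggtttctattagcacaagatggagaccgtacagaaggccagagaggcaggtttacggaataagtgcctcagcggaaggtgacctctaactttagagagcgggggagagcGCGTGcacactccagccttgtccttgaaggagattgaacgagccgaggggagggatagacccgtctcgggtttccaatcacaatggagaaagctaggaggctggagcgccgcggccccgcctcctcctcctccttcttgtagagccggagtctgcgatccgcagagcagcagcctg
The Ldha window held 7 matches counted over both strands, in 5 separate runs because CACGTG reads as a match on each strand. Such a window with 5 or more matches was found for 1.66% of 32817 RefSeq windows of this length. The Slc2a1 window held 2 matches, the Pgk1 window 2 and the Ldhb window 1. A window was found for 9 of the 10 genes, and 6 of these 9 held at least 1 match, against 43.8% of all windows. Both motifs contain the letters CG, and the 9 windows held a median of 15 CG pairs, against 7 over all windows. The part of CG content in the difference was not tested. The Eno1 window, among the 6, lies 244 bases from the start of a principal transcript. The letters GGGCGG, the core of a GC box, stood in 3 of the 9 windows and in 35.6% of all windows. The windows of Hk1, Aldoa and Eno2 held no match. These matches describe sequence, not binding, and their relation to the levels in these cells was not tested.

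Levels are in RPKM, read numbers divided by transcript length and library size, and a value of at least 10 RPKM counted as detection. Estimated depth ran from 891900 to 2959000 reads per cell with a median of 1820000, and 3843 to 6183 genes were detected per cell. The reads carry no molecular identifiers and no strand, so intervals and floors cover counting error only, and the source of a read from 2 overlapping genes is not known. Among the 10 genes such overlap touched at most 2.99% of exon bases, in Slc2a1. The cells carried neuronal markers, with Snap25, Tubb3 and Stmn2 detected in all 25 cells, while the leading markers of astrocytes (Aqp4, Gfap, Slc1a3), microglia (C1qa, C1qb, C1qc) and oligodendrocytes (Mog, Mobp, Mag) were detected in none, which allows a share of up to 12% of cells each (3 counts in 25 cells). Of endothelium, Cldn5 and Flt1 were detected in none and Pecam1 in 4 cells, and of tanycytes, Rax in none, Col23a1 in 1 and Crym in 2.

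Of the 10 genes, 6 were detected in every cell, all of them enzyme genes, and the transporters, Hk1 and Aldoc were not. Aldoa, Pgk1, Eno1, Eno2, Ldha and Ldhb were detected in 25 of 25 cells each, Hk1 in 23, Aldoc in 20, Slc2a3 in 17 and Slc2a1 in 10. So 6 of 10 genes were found in all cells, where 2.6% of all 30903 symbols were. A cell held from 6 to 10 of the 10 genes. Cell 12 held 6, 2 cells held 7, 4 held 8, 12 held 9 and 6 held all 10. The summed level of the 10 genes ran from 1248 RPKM in cell 11 to 2893 RPKM in cell 9, with a median of 1910 RPKM.

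**Figure D1:**
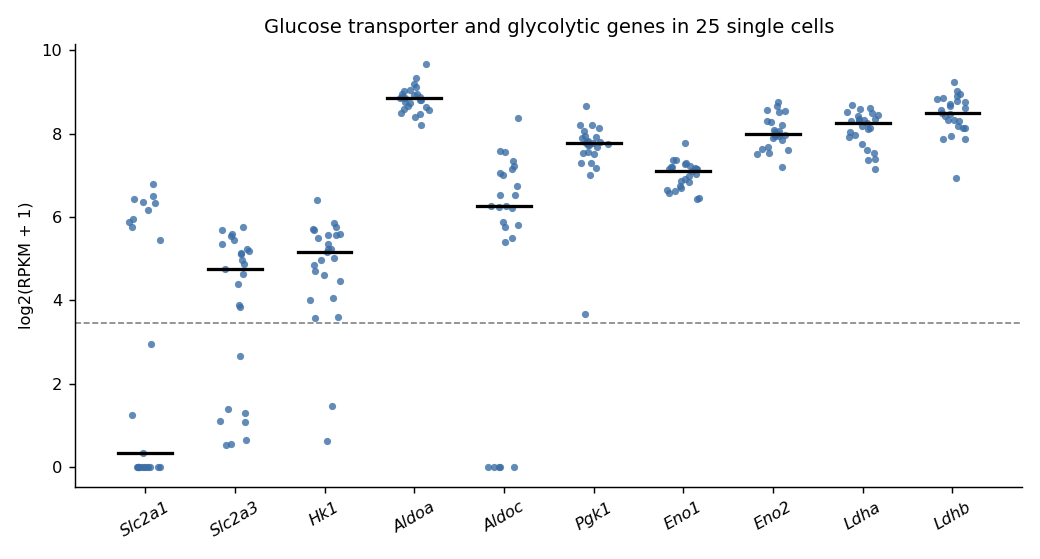
Level of each of the 10 genes as log2(RPKM + 1), 1 point per cell (25 cells), with a bar at the median; the dashed line marks detection at 10 RPKM. Slc2a1 and Aldoc split into cells with a clear level and cells at or near 0, whereas 6 genes lie above the line in every cell and Pgk1 has 1 low cell.

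The plot of levels by cell shows 2 forms of variation. Of the 10, 4 genes had cells below detection that lay apart from the rest, and 6 genes varied around a common level. For these 6, the SD of log2(RPKM + 1) over cells was 0.31 for Aldoa, 0.32 for Eno1, 0.39 for Eno2, 0.43 for Ldha, 0.48 for Ldhb and 0.89 for Pgk1. The median of this SD over the 804 genes found in all cells was 0.52.

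Slc2a1 encodes GLUT1, the transporter of the blood-brain barrier and of many glia (GRCm38 chr4:119108711-119137983). It was at 0 RPKM in 12 of 25 cells, had a median of 0.25 RPKM and reached 111 RPKM in cell 9. Detection in 10 of 25 cells gives a share of 40% (exact Clopper-Pearson 95% interval 21.1 to 61.3). No cell lay between 6.71 RPKM, the highest undetected level (cell 26), and 42.65 RPKM, the lowest detected one. Besides the 12 cells at 0, 3 cells held traces below detection, cell 13 at 0.25 RPKM, cell 5 at 1.38 RPKM and cell 26 at 6.71 RPKM. A floor of 3 reads would stand at 0.289 to 0.773 RPKM in the 12 cells at 0, far below the detected levels. The summed level of 8 endothelial markers had a median of 0.04 RPKM (0 to 12.9) in the 10 cells with Slc2a1 and 0.5 RPKM (0 to 26.7) in the other 15.

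Slc2a3 encodes GLUT3, the high-affinity transporter of neurons (chr6:122727809-122801640). Its level was 0.45 RPKM in the lowest cell (cell 15), 26.1 RPKM at the median and 53.2 RPKM in the highest (cell 29). It was detected in 17 of 25 cells, or 68% (46.5 to 85.1), and no cell lay between 5.35 and 13.38 RPKM. Unlike Slc2a1, it was above 0 in every cell, so its undetected cells held at least traces. A floor of 3 reads would stand at 0.140 to 0.464 RPKM over all cells. The lowest levels, 0.45 RPKM in cell 15, 0.46 in cell 43 and 0.55 in cell 34, lay close to that range and rest on few reads. Within the 17 detected cells the median was 34.2 RPKM, and the SD of log2(RPKM + 1) was 0.58, against 0.40 within the 10 cells with Slc2a1.

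Both transporters were detected together in 7 cells, Slc2a1 alone in 3 (cells 8, 15 and 17), Slc2a3 alone in 10, and neither in 5 (cells 4, 12, 26, 34 and 43). Independent genes with these shares would coincide in 6.8 cells, so detection of one said little about the other. Their levels also showed little relation (Pearson r = 0.05, Spearman rho = -0.02 over 25 cells, which share 1 pool and differ in depth). In all 10 cells where Slc2a1 was detected it was the higher of the pair. Of the 20 cells in which the pair summed to 10 RPKM or more, Slc2a3 led in 10 and Slc2a1 in 10. The Slc2a3 share ran from 0.4995% (cell 15) to 100%, with 3 cells under 10% and 10 over 90%, and its median of 72.0% therefore describes few cells. That median was 28.5% over cells with a pair sum of 50 RPKM or more, 81.8% by estimated reads and 99.5% without the 6 cells with Malat1 under 20 RPKM.

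Of 11 other genes of the glucose transporter families none reached 10 RPKM in 15 or more cells. Slc2a2 (GLUT2, the transporter of liver and pancreatic beta cells) peaked at 4.06 RPKM and Slc2a4 (GLUT4, the insulin-responsive transporter) at 0.17 RPKM, and neither was detected in any cell. Slc2a5 and Slc2a10 were at 0 in all 25 cells. The only others found in 5 or more cells, named here after their values were seen, were Slc2a6 in 11, Slc2a8 in 6 and Slc2a13 in 5. In 5 cells neither Slc2a1 nor Slc2a3 was detected. Of these, cells 26, 34 and 43 held Slc2a6 at 19.3, 36.7 and 109.7 RPKM, and cells 4 and 12 held Slc2a8 at 97.3 and 57.6 RPKM. Every cell thus had at least 1 detected gene of the SLC2 family. Slc2a6 and Slc2a8 were also detected in cells with Slc2a1 or Slc2a3. Whether they bring glucose into the cell was not tested.

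Hk1, the main hexokinase of brain, commits glucose to metabolism (chr10:62268855-62379908). Its level was 0.54 RPKM in cell 7, 34.7 RPKM at the median and 84.4 RPKM in cell 6. It was detected in 23 of 25 cells, or 92% (74.0 to 99.0), and cell 12 was the other undetected cell at 1.74 RPKM. Detected levels spread widely and had no gap above the threshold, the lowest being 10.9 RPKM. Hkdc1, another hexokinase gene, was at 0 in every cell.

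Aldoa, the aldolase of muscle and most other tissues, was the highest of the 10 genes (chr7:126795234-126800751). Its level was 297 RPKM in cell 11, 459 RPKM at the median and 815 RPKM in cell 9, a span of 2.74-fold, and its median ranked 13 among all symbols. The low and high ends were the deepest and the shallowest cell. Over 25 cells its log2 level fell with estimated depth (r = -0.91, rho = -0.87), where the 804 genes found in all cells had a median r of -0.14 with 10% of them below -0.65. Aldoa levels lay close to those of the 50 highest genes of each cell. The estimated read number per base of exon was 0.632 to 0.941 for Aldoa, and the mean over those 50 genes was 0.585 to 0.953. Picard, which can mark duplicate reads, is named in the submitters' processing notes. Whether duplicates were removed is not stated there, and its part in this relation was not tested.

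**Figure D2:**
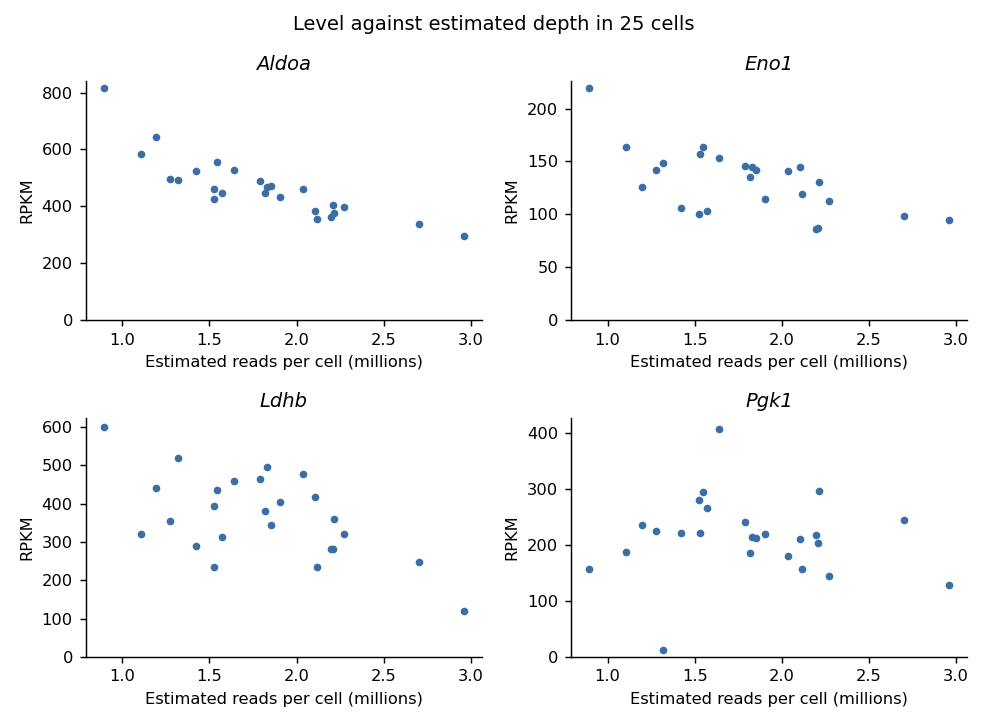
RPKM of Aldoa, Eno1, Ldhb and Pgk1 (vertical axes, from 0) against the estimated read number of the cell, 1 point per cell (25 cells). Aldoa falls steadily from 815 RPKM in the shallowest cell to 297 RPKM in the deepest, Eno1 and Ldhb fall with more scatter, and Pgk1 shows no such slope but has 1 cell at 11.7 RPKM.

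Aldoc, the aldolase known from astrocytes and some neurons, was present or absent (chr11:78322968-78327781). It was at exactly 0 RPKM in cells 5, 7, 12, 14 and 34, had a median of 75.8 RPKM and reached 332 RPKM in cell 25. Detection in 20 of 25 cells gives 80% (59.3 to 93.2), and the lowest detected level was 41.28 RPKM. In these 5 cells 3 reads would stand at 0.405 to 0.831 RPKM, against 0.311 to 1.03 RPKM over all cells, so the empty cells were neither the deepest nor the shallowest. All 20 cells with Aldoc also had Hk1, where independent genes would coincide in 18.4. Astrocyte markers were scarce on both sides, with 2 of 10 detected in any cell with Aldoc and 2 of 10 in any cell without it. Their summed level had a median of 6.06 RPKM (0 to 153) in the 20 cells with Aldoc and 3.27 RPKM (0 to 77.9) in the other 5.

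Aldoa exceeded Aldoc in 25 of 25 cells. The Aldoc share of the pair was 0% in the 5 empty cells, 14.0% at the median and 40.1% in cell 25. The 2 genes showed no shared variation (r = 0.06, rho = 0.16).

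Pgk1 encodes the enzyme of the first ATP-yielding step (chrX:106187100-106203699). Its level was 218 RPKM at the median and 408 RPKM in cell 1, and 24 cells lay at 127.9 RPKM or above. The exception was cell 43 at 11.7 RPKM, at a depth within the range of the others but with 3843 genes detected, the fewest of all cells. Cell 43 was also low for other abundant genes. The count was over 806 genes detected in 24 or more cells, with a median of 100 RPKM or more. Of these, 41 stood at 10% of their median or less in cell 43, against 0 to 20 in other cells. Abundant genes undetected in more cells were not counted, which shapes the number for every cell. Of the Pgk1 transcript, 68.0% of 50-base windows were shared with other genes, nearly all with the retrogene Pgk1-rs7, so some reads may be assigned elsewhere or dropped. Its testis form Pgk2 was detected in no cell and peaked at 0.89 RPKM.

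Eno1 and Eno2 encode the general and the neuronal enolase (chr4:150236721-150248879 and chr6:124760053-124769673). Eno1 stood at 86.0 RPKM in cell 2, 136 RPKM at the median and 219 RPKM in cell 9. Eno2 stood at 146 RPKM in cell 14, 253 RPKM at the median and 437 RPKM in cell 31. The neuronal form led in all 25 cells. Its share of the pair was 51.8% in cell 14, 67.3% at the median and 78.1% in cell 32, with 3 cells between 40% and 60%. The levels of the 2 genes varied together only weakly (r = 0.35, and -0.03 with depth regressed out). Eno1 is uncertain as a level, because 72.2% of its 50-base windows occur in other genes, chiefly Eno1b, whereas 0.255% of those of Eno2 do. The Eno2 share of the pair is uncertain for the same reason.

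Ldha and Ldhb encode the muscle-type and heart-type subunits of lactate dehydrogenase, which mix freely in the tetramer (chr7:46841475-46855627 and chr6:142490249-142507957). Ldha stood at 142 RPKM in cell 13, 303 RPKM at the median and 415 RPKM in cell 31. Ldhb stood at 121 RPKM in cell 11, 361 RPKM at the median and 601 RPKM in cell 9. Both were abundant in every cell, and their ranges overlapped. Ldhb was the higher in 21 of 25 cells. Its share was 33.2% in cell 11, 55.9% at the median and 75.5% in cell 13, and 18 cells lay between 40% and 60%. This lead rests on gene length, since the Ldhb share of estimated reads, which is not per length, was 37.6% at the median, and the lengths behind the RPKM are not known here. The 2 subunits rose and fell together more than the other isoenzyme pairs did (r = 0.46, rho = 0.64; r = 0.64 without cells 13 and 34), as a description over cells of 1 pool. Shared windows made up 17.1% of Ldha and 27.0% of Ldhb, and no isoenzyme pair shared any 50-base window with its partner. The testis subunit Ldhc was detected in no cell.

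**Figure D3:**
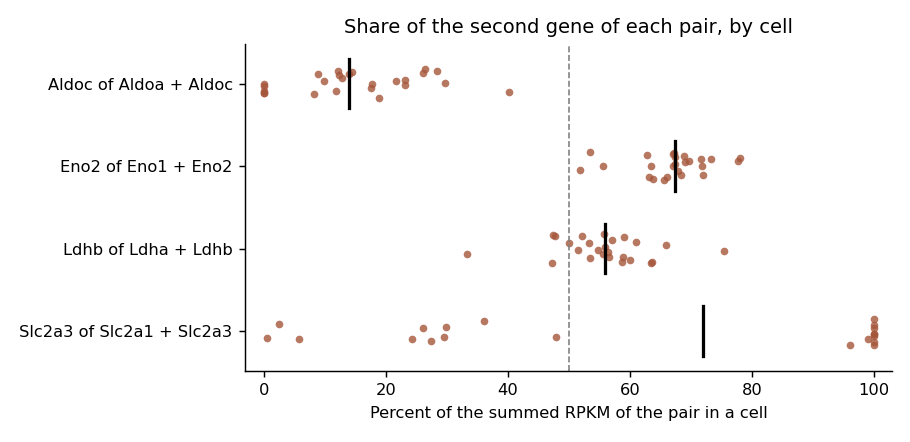
Share of the second gene in the summed RPKM of each pair, in percent, 1 point per cell (25 cells, or 20 for the transporters, where the sum reached 10 RPKM), with a bar at the median and a dashed line at 50%. Aldoc lies below the line and Eno2 above it in every cell, Ldhb lies near it, and the transporters fall at the 2 ends with 1 cell between 40% and 60%.

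The plot of isoenzyme shares sets the 4 pairs side by side. The SD of the share over cells was 10.7 percentage points for Aldoc, 6.35 for Eno2 and 7.85 for Ldhb. Aldoa and Eno2 each led their pair in every cell, though the Eno2 lead rests on the uncertain level of Eno1. Ldhb led by RPKM in 21 cells, and its median share fell below 50% by estimated reads (37.6%). The transporter pair had an SD of 40.7 percentage points.

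By median RPKM the order was Aldoa, Ldhb, Ldha, Eno2, Pgk1, Eno1, Aldoc, Hk1, Slc2a3 and Slc2a1. Some neighbours kept this order in nearly all cells, such as Pgk1 above Eno1 in 23 of 25 and Aldoa above Ldhb in 21. The levels of Pgk1 and Eno1 are uncertain, as most of their 50-base windows occur in other genes. Other neighbours did not separate beyond their spread. Ldha exceeded Eno2 in 14 cells and fell below it in 11, Eno2 exceeded Pgk1 in 16 against 9, and Slc2a3 exceeded Slc2a1 in 14 against 11. Eno1 over Aldoc, Aldoc over Hk1 and Hk1 over Slc2a3 each held in 19 cells against 6.

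The rest of the pathway followed the same form. Of 21 other glycolytic genes, 5 were detected in all 25 cells and 10 in 15 or more. The 5 were the single-isoform or main-isoform steps Gpi1 (glucose 6-phosphate isomerase, median 173 RPKM), Tpi1 (triose phosphate isomerase, 373 RPKM), Gapdh (72.8 RPKM), Pgam1 (phosphoglycerate mutase, 244 RPKM) and Pkm (pyruvate kinase, 299.6 RPKM). Gapdh stood lowest of these, and 82.5% of its 50-base windows occur in 222 other genes, so its level is uncertain. The 3 phosphofructokinase genes, which encode the main control step, were each below detection in some cells. Pfkl and Pfkm were detected in 22 cells each (medians 67.8 and 131 RPKM) and Pfkp in 18 (28.4 RPKM). Pfkl and Pfkm were above 0 in all 25 cells. Bpgm, which makes 2,3-bisphosphoglycerate, was found in 18 cells. The tissue-restricted forms Gapdhs and Pklr were detected in none.

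**Figure D4:**
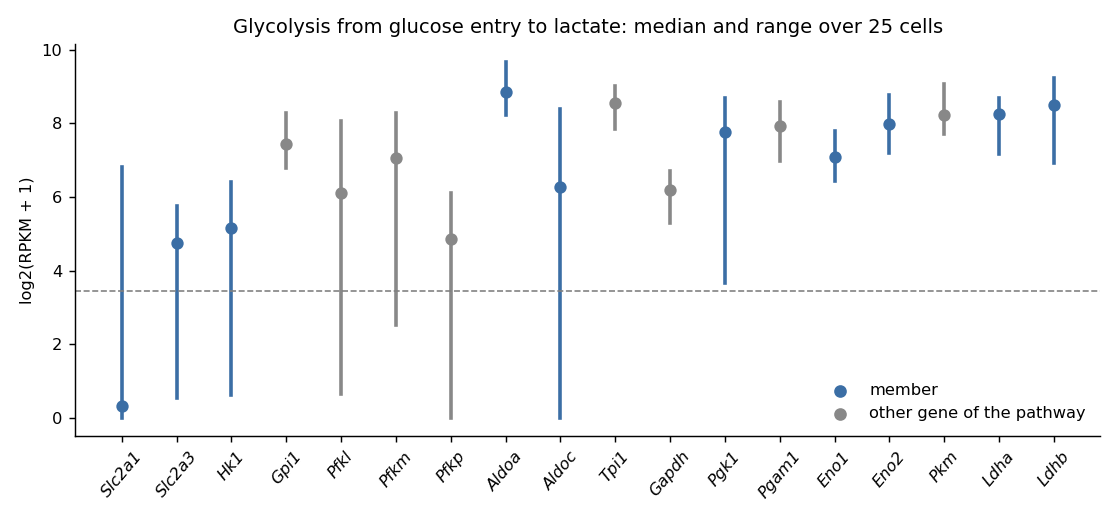
Median (point) and range (line) over 25 cells of log2(RPKM + 1) for genes in pathway order from glucose entry to lactate, the 10 genes in blue and some other glycolytic genes in grey; the dashed line marks 10 RPKM. Transporters, Hk1 and phosphofructokinases mostly lie lower and reach below the line in some cells, while the later genes drawn lie above it in every cell apart from Aldoc. Patchy forms of the later steps, such as Bpgm and Eno3, are not drawn.

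Along the pathway plot the drawn genes after aldolase were high in all cells except Gapdh, which was lower, and cell 43 for Pgk1. The drawn genes before aldolase were lower or patchy, apart from Gpi1. Some forms detected in only part of the cells were not drawn. After aldolase these included Bpgm (18 cells), Eno3 (7), Eno4 (3) and Pgam2 (1), and before it Hk2 and Hk3 (1 each). The contrast therefore depends on which genes were drawn. Among 11 regulators of the pathway 2 were detected in 15 or more cells, Hif1a (the alpha subunit of HIF-1) in 18 with a median of 23.3 RPKM and Egln2 (a prolyl hydroxylase that marks HIF for decay) in 18 with 57.5 RPKM. Egln3 and Pfkfb1 were detected in none. At the lactate end, 8 of 16 genes for lactate and pyruvate handling were found in 15 or more cells. These were Bsg (basigin, the partner of lactate transporters) and Pdhb (a subunit of pyruvate dehydrogenase) in all 25, at medians of 254 and 181 RPKM, the mitochondrial pyruvate carriers Mpc1 and Mpc2 in 24 each, and the dehydrogenase components Dlat in 22, Pdha1 in 20 and Dld in 19 with the kinase Pdk2 in 16. The lactate transporter gene Slc16a3 and the kinase Pdk4 were at 0 in every cell. Of 20 respiratory chain subunits 19 were detected in all cells, with a median of medians of 297 RPKM, against 177 RPKM for the 10 glucose genes.

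Whether the 10 genes varied together was described over the 25 cells, which share 1 pool and differ in depth. The median Pearson r over their 45 pairs was 0.12, with 31 pairs above 0 and 4 above 0.5, and the median r of the 10 genes with 9773 other genes was -0.02. Those 4 pairs all joined enzymes found in every cell. Eno1 with Ldhb had r = 0.74 (rho 0.75), Aldoa with Eno1 r = 0.71 (rho 0.70), Aldoa with Ldhb r = 0.70 (rho 0.64) and Aldoa with Eno2 r = 0.57 (rho 0.55). Depth moved with these pairs. With estimated depth regressed out they stood at 0.60, 0.43, 0.58 and 0.11, and the median over the 15 pairs of the 6 genes found in all cells went from 0.34 to 0.12. Without the 2 cells farthest from the median of the first gene, Eno1 with Ldhb stood at 0.71 and the 3 Aldoa pairs at 0.55, 0.53 and 0.49.

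**Figure D5:**
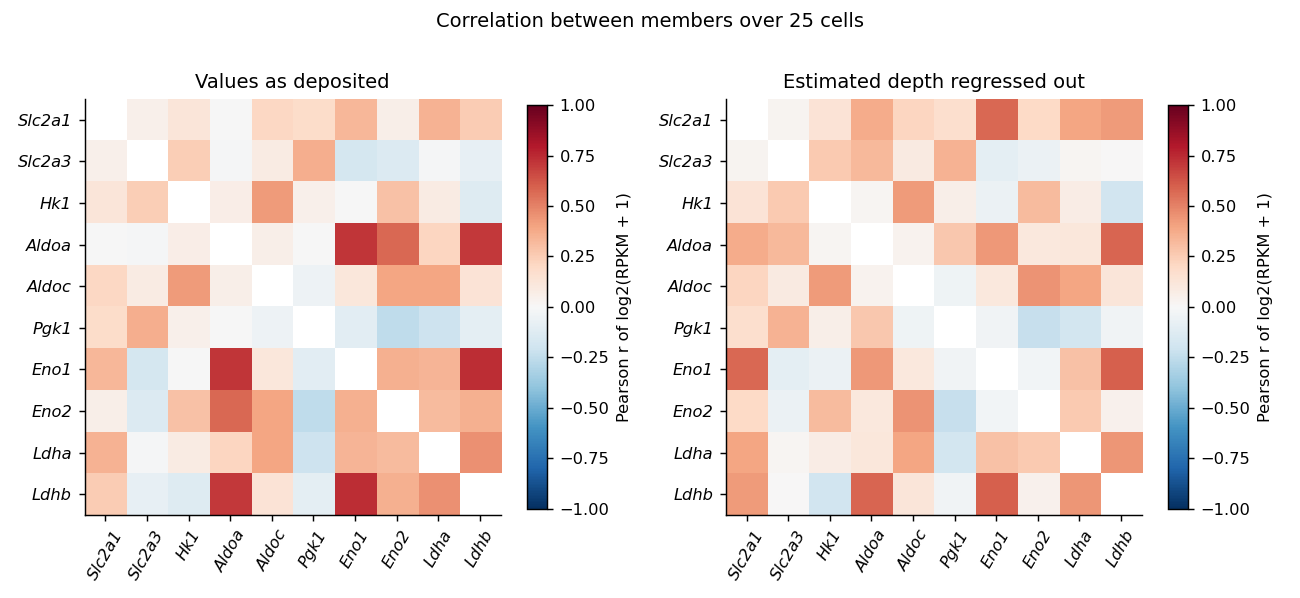
Pearson r of log2(RPKM + 1) between the 10 genes over 25 cells, as deposited (left) and with estimated depth regressed out of each gene (right), on a colour scale from -1 (blue) to 1 (red). The red block of Aldoa with Eno1, Eno2 and Ldhb (r = 0.71, 0.57 and 0.70) is paler on the right (0.43, 0.11 and 0.58), as is Eno1 with Ldhb (0.74 on the left, 0.60 on the right).

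The correlation plot shows little shared variation outside that block. Hk1 with Aldoc had r = 0.43 but rho 0.10, and r = -0.12 without cells 7 and 12, so it rests on those cells. The lowest pair was Pgk1 with Eno2 (r = -0.26), which stood at 0.08 without cells 1 and 43. Slc2a1 with Eno1 went the other way, from 0.33 to 0.58 with depth regressed out. Respiratory chain subunits, taken for comparison, had a median r of 0.26 over 190 pairs and 0.24 with depth regressed out. The 10 glucose genes with those subunits had a median r of 0.07 over 200 pairs.

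For each gene the 3 other genes of most similar pattern were found by Pearson r over the 25 cells, among genes detected in at least 5 cells. No other of the 10 genes was among the 3 for any of them. Aldoa was most like the gene model Gm1821 (r = 0.92), the ribosomal protein gene Rpl41 (0.91) and the proton pump subunit Atp6v0c (0.89), and all 3 tracked depth (r = -0.98, -0.91 and -0.86). With depth regressed out the values for Aldoa were 0.30, 0.47 and 0.52. Eno1 was most like Atp6v0c (0.84), the glutathione transferase Gstp1 (0.83) and Rpl36 (0.83), and Eno2 was most like Rplp1 (0.70), Wsb2 (0.66) and the autophagy receptor Sqstm1 (0.66). Ldhb was most like brain creatine kinase Ckb (0.81), the cytochrome oxidase subunit Cox4i1 (0.79) and Cops7a (0.79), which kept 0.71, 0.71 and 0.74 with depth regressed out. Ldha was most like Atp6v0e2, 1110008P14Rik and Fez1, each at 0.68.

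Pgk1 was most like the tubulin gene Tuba4a (0.93), Lcmt1 (0.90) and the tubulin gene Tubb4b (0.90). All 3 stood at 0 in cell 43, the cell with little Pgk1. Without that cell the values were 0.52, 0.46 and 0.08, and Emd (0.68), Dkc1 (0.67) and Mdh1 (0.65) led. The genes with undetected cells were most like other patchy genes. Slc2a1 was nearest to the zinc finger gene Zfp61 (0.78), Syt17 (0.74) and Zfp954 (0.67), and Slc2a3 to the chaperone gene Dnajb9 (0.75), Ap4s1 (0.67) and the actin-bundling gene Fscn1 (0.63). Aldoc was nearest to the RNA helicase Ddx17 (0.78), Pnma2 (0.67) and 1110038B12Rik (0.65). Hk1 was nearest to Sft2d1 (0.66), Ass1 (0.66) and Etnk1 (0.64), of which Ass1 stood at -0.01 without cells 7 and 12. The lists depend on the setting: with depth regressed out 0 of the 3 genes stayed for Aldoa and Eno2 and 1 for Eno1 and Ldha, and without cell 43 only 1 stayed for Slc2a3, Aldoc, Eno2 and Ldha. In values this sparse such likeness describes these cells and no more.

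Cells were also set apart by the neuronal markers Th (tyrosine hydroxylase, of dopamine synthesis), Lhx1 (a transcription factor), Sst (somatostatin) and Glp1r (the receptor of glucagon-like peptide 1), and by the nuclear RNA Malat1. These sets overlap and are cells of 1 pool, and the ranges overlapped for all 10 genes in each. Of these sets, 3 contrasts were picked out after the values were seen. In 8 cells with Th the median of Slc2a3 was 3.48 RPKM (0.45 to 28.1, 3 detected), against 34.2 RPKM (0.55 to 53.2, 14 detected) in the other 17. In 5 cells with Sst the median of Aldoc was 188 RPKM (57.6 to 332), against 73.8 RPKM (0 to 162) in the other 20. This was not particular to Aldoc, since the medians of all 10 genes were higher in cells with Sst. Ldha, for example, stood at 362 against 277 RPKM. Cells with Sst were shallower, at a median of 1276000 estimated reads against 1866500, and the part of depth was not tested. Of the 6 cells with Malat1 under 20 RPKM, all 6 had Slc2a3 and 4 had Slc2a1, against 11 and 6 of the other 19.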

How the data were processed

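Polyadenylated RNA of 25 single cells was sequenced after Smart-Seq2 and Nextera XT preparation, per the labels' protocols. The table the authors deposited is named as gene counts, but its values have the form of RPKM. Named in the submitters' processing notes are featureCounts 1.4.6, SAMtools 0.1.19, Picard 2.5.0, TopHat2 2.0.14 and bcl2fastq, with builds GRCm38 and mm10; settings and gene lengths were not given in the sources used here.

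Of 33082 table lines, 26 with date-like names were left out, and the line with the highest sum was kept for 755 repeated symbols. Depth was estimated from values worth 1 and 2 reads with GENCODE M21 lengths (22755 symbols). RPKM times length summed to 1.38 to 1.47 times the expected total, so read numbers are estimates. On simulated data the depth step erred by at most 0.823%. The simulation used the same gene lengths as the estimate, so it does not cover error from lengths that differ from the authors'. Detection was at 10 RPKM, the pseudocount was 1 RPKM, and 95% intervals were Clopper-Pearson. No test was run. Shared windows were exact 50-base matches of a gene's principal GENCODE transcript to any transcript of other genes, and of several RefSeq promoter windows the one nearest a principal start was taken. Python 3.11.15, pandas 2.3.3, numpy 2.4.6, SciPy 1.17.1 and matplotlib 3.10.9 were used.

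The genes, the lists and the marker sets were chosen with earlier results of these data known. Named were all 10 genes, the 3 most similar genes of each, other glucose genes detected in 15 or more cells, Slc2a2, Slc2a4, Kcnj11, Abcc8, up to 4 undetected genes per list, and the 3 leading markers of each list. Some genes that this rule names are not reported here. The settings varied were the detection level, rescaling by the upper quartile, the pseudocount, the cells included and, chosen after seeing the data, regressing out depth and leaving out cell 43.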

Additional observations from a re-analysis of the deposited data

How the results depend on the processing

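Of 150 values recomputed under other settings, 135 were counted as the same and 15 as moved. The same meant within the spread between cells or counting error. For the most similar genes it meant that at least 2 of the 3 named stayed. Among these values only the correlations could change sign, and none did. They were the median r over 45 pairs and the r of Aldoa with Eno1, Ldhb and Eno2 and of Eno1 with Ldhb, the highest pairs. Lower pairs, not among these values, did change sign. Eno1 with Eno2 went from 0.35 to -0.03 with depth regressed out, and Hk1 with Aldoc from 0.43 to -0.12 without cells 7 and 12. In 2 of the moved values the leading form of a pair changed. The Ldhb share of its pair, 55.9% by RPKM, was 37.6% by estimated reads, which are not per length. The Slc2a3 share, 72.0% over 20 cells, was 28.5% over cells with a pair sum of 50 RPKM or more, 81.8% by estimated reads and 99.5% without cells low in Malat1. Slc2a3 was detected in 22 cells at 1 RPKM. The number of genes found in all cells was 6 at 1 RPKM and 5 at 20 RPKM or with upper-quartile rescaling. The median r over 45 pairs ran from 0.10 to 0.18 over 7 settings, and with depth regressed out Aldoa with Eno1 stood at 0.43 and Aldoa with Eno2 at 0.11. Of the 3 most similar genes named, those still among the 3 with depth regressed out numbered 0 for Aldoa and Eno2 and 1 for Eno1 and Ldha. Without cell 43 they numbered 0 for Pgk1 and 1 for Slc2a3, Aldoc, Eno2 and Ldha, and among genes detected in 15 or more cells 0 for Slc2a1. No paired analysis was possible because all cells form 1 group with no replicate numbers to match. Depth limits low levels, since 3 reads of Slc2a1 stood at up to 0.959 RPKM in the shallowest cell, and detection in 0 of 25 cells allows a share of 12%, taken as 3 counts in 25. All values come from 1 pool of 2 mice, so variation between animals was not measured.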

Other observations

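The branches of glucose metabolism beside glycolysis were unevenly filled. Of 7 pentose phosphate genes, 4 were detected in 15 or more of the 25 cells: Taldo1 (transaldolase) in 24 with a median of 167 RPKM, Tkt (transketolase) in 21 with 94.0 RPKM, Pgd (phosphogluconate dehydrogenase) in 18 with 58.7 RPKM and Pgls (phosphogluconolactonase) in 15 with 17.8 RPKM. Rpia, the ribose 5-phosphate isomerase, was detected in none and peaked at 3.82 RPKM. Of 6 glycogen genes only Pygb, the brain form of glycogen phosphorylase, reached 15 cells, with a median of 33.4 RPKM.

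The ATP-sensitive potassium channel closes when ATP rises and links glucose use to firing in glucose-sensing cells. Its subunit genes Kcnj11 and Abcc8 were detected in 2 and 3 of the 25 cells, with highest levels of 43.6 RPKM in cell 27 and 43.5 RPKM in cell 7. Kcnj8 was at 0 in every cell and Abcc9 was detected in none.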
